A study of Mus musculus with 15 samples.

Results

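Ribosome profiling reads from mouse liver in the middle of the subjective day were compared with reads from the middle of the subjective night. Ribosome profiling sequences the short mRNA fragments that a ribosome shields from nuclease, so a gene's reads reflect how much of its mRNA was present and how densely ribosomes sat on it, together. No RNA-seq was used here, so the mRNA level and its translation cannot be told apart in any value below. The 4 libraries of circadian times 4 and 8 (CT4 and CT8) were taken as day and the 4 libraries of CT16 and CT20 as night, 8 of the 14 libraries of the series. The rule that puts a library in a group uses the circadian time in its label and no measured value. Circadian time counts hours of the animal's own clock, with CT0 at the start of the subjective day and CT12 at the start of the subjective night.

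Each library came from the liver of 1 mouse, with 2 mice at each time. By the labels and the study's methods, all were wild-type male C57BL/6N mice, 8 to 10 weeks old, which had been kept in 12 h of light and 12 h of dark and were then moved to constant darkness before the livers were taken. Both groups share the genotype, the strain, the sex and the light cycle before the move. The livers were taken at successive times of 1 series after the move to darkness, so the night mice had spent on average 12 h longer in darkness than the day mice, and by the labels all night livers were collected on the calendar day after the day livers. Circadian time, time in darkness and day of collection cannot be told apart. The 4 libraries of a group span 2 times that are 4 h apart, so the spread within a group holds the difference between those times as well as the difference between mice.

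The circadian clock of liver cells is a transcription loop. BMAL1 (gene Arntl) and CLOCK activate the Per and Cry genes and the nuclear receptor genes Nr1d1 and Nr1d2, PER and CRY proteins repress BMAL1 and CLOCK in turn, and the receptors REV-ERB (Nr1d1, Nr1d2) and ROR (Rora) act against each other on Arntl. Mice are nocturnal and take most of their food at night, and the liver stores glucose and makes fat after feeding and releases fuel during the daytime fast. Ribosomal protein mRNAs start with a run of pyrimidines, the 5′ terminal oligopyrimidine (TOP) motif, through which growth and nutrient signals are known to adjust their translation.

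The 8 libraries held from 46583013 to 87480771 counts, and the counts of a library can hold 1 read several times where transcripts overlap. The 21 transcripts of the major urinary protein (Mup) family, near-identical genes for a secreted pheromone carrier, took from 42.6% to 68.6% of a library. Counts were therefore scaled by TMM, a trimmed mean over all transcripts kept, and are given as CPM, counts per 1000000 of the TMM-scaled total. The 10 hepatocyte markers summed to between 39000 and 46430 CPM by day and between 42020 and 52870 CPM at night. CT20 replicate 2 stood apart: 24 marker genes of pancreatic acinar cells, for digestive enzymes and other proteins of their secretory granules, summed to 4875 CPM there, against at most 12.3 CPM in any day library and 7.57 CPM in any other night library. All 10 pancreatic islet markers had 0 reads in every day library, and they summed to 0.272 CPM in CT20 replicate 2. None of the 24 acinar genes passed the test in either direction, but 22 were called at night with total-count scaling and 16 in CT8 against CT20 alone. Counts in CT16 replicate 2 were all even numbers, and halving them gave 206 night genes in place of the 210 given below. In whole liver, fewer cells of a type and less RNA per cell cannot be told apart.

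More genes were higher at night than by day. Of 17299 transcripts averaging 10 counts or more, 280 (1.62%) were higher at night and 88 (0.509%) higher by day at an adjusted p under 0.05 (edgeR quasi-likelihood test, 4 against 4 libraries, Benjamini-Hochberg over all transcripts). Taking the transcript with most reads for each of 11736 genes, 210 genes (1.79%) were higher at night and 60 (0.511%) higher by day. The median fold among the called genes was 2.11 at night and 1.98 by day, and 121 night genes and 29 day genes differed by more than 2-fold. Without CT20 replicate 2 the counts were 219 (1.87%) at night and 82 (0.699%) by day, and 233 of the 270 genes called with it were called without it. Leaving out any library of CT4, CT8 or CT16 lowered both counts, which were 91 at night and 20 by day without CT8 replicate 1. They were 121 and 29 without CT4 replicate 1, 137 and 40 without CT4 replicate 2, 118 and 38 without CT8 replicate 2, 109 and 20 without CT16 replicate 1, 101 and 22 without CT16 replicate 2, and 263 and 76 without CT20 replicate 1. A fit to all 14 libraries, which gives each of the 7 times its own mean, called 387 (3.3%) at night and 157 (1.34%) by day. Scaling by the total count instead gave a median log2 difference over all transcripts of -0.158, against 0.0049 with TMM, and turned the split to 186 night and 10 day genes, with 22 acinar genes among the 186. Scaling by the total without Mup transcripts moved the split the other way, to 151 night and 94 day genes (median 0.078), and the upper quartile gave 169 and 77 (median 0.051).

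**Figure D1:**
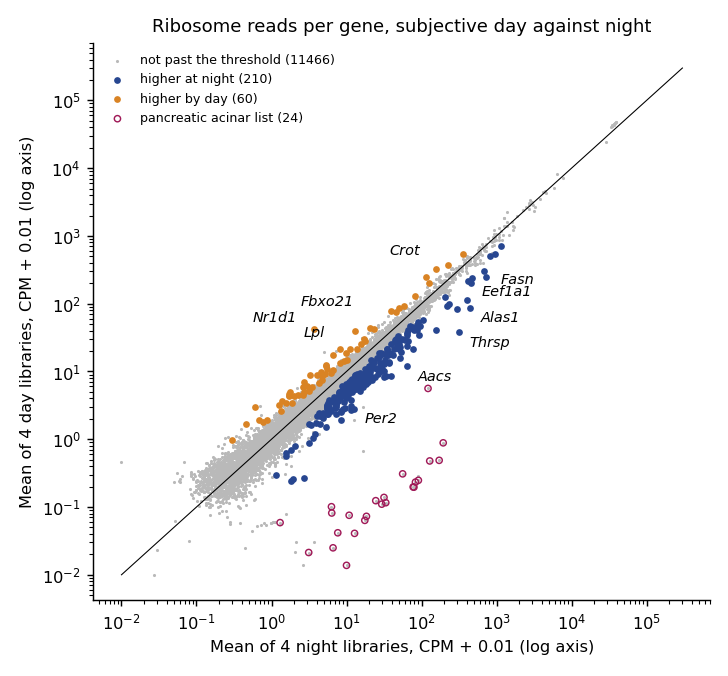
Each point is 1 of 11736 genes, with the mean CPM of the 4 night libraries on the horizontal log axis and of the 4 day libraries on the vertical log axis (0.01 added to both). The 210 genes higher at night lie below the diagonal and the 60 higher by day above it, while the open circles of the 24 pancreatic acinar genes lie far to the right through CT20 replicate 2 alone and are not past the threshold.

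The largest coordinated group was the ribosome itself. The 82 cytosolic ribosomal protein genes, which encode the structural proteins of both ribosomal subunits, included 61 that were higher at night and none higher by day, 74.4% against 1.79% of all genes. Their median log2 difference, day minus night, was -1.07, against 0.00 over all genes, and 81 of 82 estimates were below 0. Summed over the list, the level was 971 and 861 CPM in the CT4 libraries, 919 and 990 CPM at CT8, 1959 and 2376 CPM at CT16 and 1321 and 1609.9 CPM at CT20. Every night library was above every day library, the CT16 libraries were the highest, and the night mean was 1.94 times the day mean. Single genes followed the sum, with 60 of the 82 having all 4 night libraries above all 4 day libraries, against 5.23% of all genes. Without CT20 replicate 2, 58 of the 61 were called again. Leaving out 1 library moved the count. Without CT4 replicate 1, CT4 replicate 2, CT8 replicate 1, CT16 replicate 1 or CT16 replicate 2 it was 40, 36, 28, 36 and 37, while without CT20 replicate 1 it was 71.

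**Figure D2:**
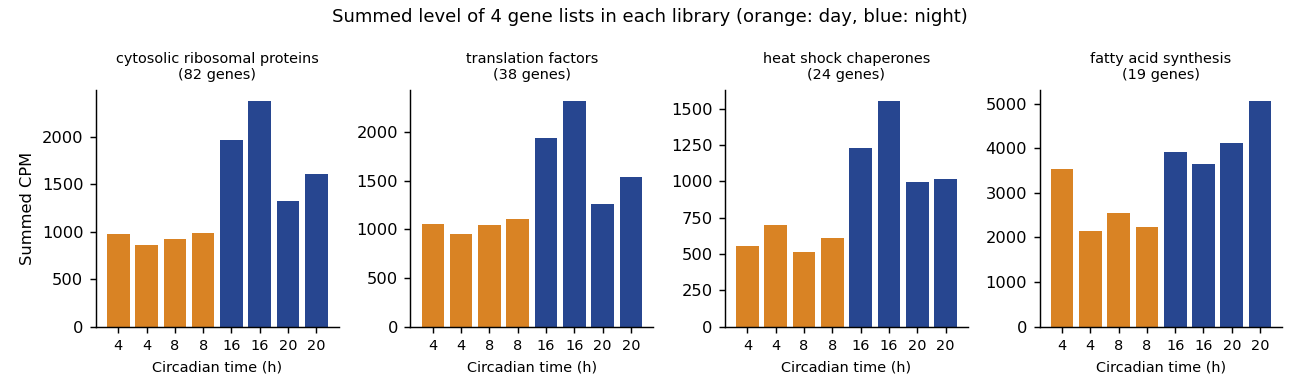
Bars give the summed CPM of 4 gene lists in each of the 8 libraries (2 mice at each circadian time; orange day, blue night; axes start at 0). For ribosomal proteins the day bars lie between 861 and 990 CPM and the night bars between 1321 and 2376 CPM, and in all 4 lists each night bar is above each day bar.

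Rps18, a protein of the small subunit, had 6.57 and 6.21 CPM at CT4, 5.83 and 5.34 CPM at CT8, 21.3 and 20.4 CPM at CT16 and 11.5 and 12.3 CPM at CT20. The day values lay close together and the night values did not reach down to them (log2 difference -1.45 ± 0.20 SE, adjusted p = 0.00362). Rpl13, of the large subunit, read 8.36, 7.97, 7.37 and 8.38 CPM in the day libraries and 18.02, 25.1, 17.0 and 15.5 CPM in the night libraries (-1.24 ± 0.15, adjusted p = 0.0030). Rps12 showed the largest ribosomal difference, from a day range of 2.15 to 3.66 CPM to a night range of 6.17 to 17.9 CPM (-1.89 ± 0.29, adjusted p = 0.00657). Rpl10a (-1.25 ± 0.17) was past the threshold as well. The 21 members that were not called include Rps27l at 0.19, a p53-induced relative of Rps27, Rpl22l1 at -0.49, a relative of Rpl22, and Rpl19 at -0.27. Many ribosomal protein genes have processed pseudogenes, and pairs such as Rps27 and Rps27rt can share reads. The values of single members are therefore uncertain where reads were split between copies or left out.

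Ribosomal protein mRNAs are short, which bears on every read of them. The 61 called members had a median coding length of 462 nt, against 1395 nt for all genes tested and 1387 nt for the other 149 genes higher at night. Per kilobase of transcript, their median level was 12.6 CPM by day and 25.4 CPM at night, against 1.25 and 1.26 CPM over all genes. The 61 were chosen by their night call, so the rise from day to night in this median is not a further result. The day against night difference of the whole list was present in both pairs of times that lie 12 h apart. Between CT4 and CT16, 61 members were lower at CT4 (2.68% of all genes), with a median of -1.35, and between CT8 and CT20, 12 were lower at CT8 (1.32% of all genes), with a median of -0.69. The test of the difference between these pairs called none of the 82 members.

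The starts of the ribosomal genes were read to show the sequence that their mRNAs begin with. Windows of 25 bases from GRCm38.p6 are given on the sense strand, 10 bases before the annotated transcript start and 15 bases after it, which lie in the 5′UTR of the first exon. Capitals mark the pyrimidine run, which begins with a C exactly at the start. The members shown are 6 ribosomal protein genes higher at night, the translation factor Eif3f and Rack1, a ribosome-bound scaffold protein.
Rps18, chr17:33955651-33955675, minus strand: cacttccgctCTCTCTTCCacagga
Rpl32, chr6:115808729-115808753, minus strand: ccgcctcttcCTTCTTCCTCggcgc
Rpl30, chr15:34443211-34443235, minus strand: gtgggagctcCTTCCTTTCTCgctc
Rps10, chr17:27635230-27635254, minus strand: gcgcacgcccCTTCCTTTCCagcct
Rps15a, chr7:118116133-118116157, minus strand: tttctgccatCTTCCCTCgccggtg
Rpl28, chr7:4792955-4792979, plus strand: tctcgtgtctCTCTTTCCgtctccg
Eif3f, chr7:108934405-108934429, plus strand: tctaggctctCTCTCTTTCTCggca
Rack1, chr11:48800350-48800374, plus strand: gccgctctttCTTTTTCTCCacagg
All 8 genes were picked among those called at night, so their shared direction was fixed by the choice. Their log2 differences ran from -0.97 for Eif3f to -1.45 for Rps18. Rpl15, Rps6, Fau, Eif2s3x and Pabpc1 also had such a run exactly at the start and were not called. A C followed by at least 4 pyrimidines stood exactly at the start of 16 of all 82 ribosomal protein genes (19.5%), 13 of the 61 called among them (21.3%), 6 of 148 other night genes (4.05%), 0 of 59 day genes and 275 of all 11611 genes with an annotated start (2.37%). Allowing the run to begin within 2 bases of the start raised these shares to 34.15% of all ribosomal protein genes, 34.4% of those called and 9.96% of all genes. Annotated starts can lie a few bases from the true one, so a missing run says only that it is not at this base.

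The translation machinery beyond the ribosome moved in part. Of 38 translation factor genes, 8 were higher at night and none by day (21.1% against 1.79%), with a median of -0.29, and 5 were called without CT8 replicate 1. The called members were the elongation factors Eef1a1, Eef1b2, Eef1g and Eef2, the initiation factors Eif4a2 and Eif3f, the growth-related protein Tpt1 and Eif4ebp3, a repressor of cap-dependent initiation. Eef2, which moves the ribosome along the mRNA, had 97.2 and 68.2 CPM at CT4, 80.9 and 92.9 CPM at CT8, 366 and 491 CPM at CT16 and 136 and 213 CPM at CT20. All 4 night libraries were above the day libraries and the CT16 libraries stood above those of CT20 (-1.83 ± 0.31, adjusted p = 0.0107). Eef1a1, which brings aminoacyl-tRNA to the ribosome, went from 84.4 to 137 CPM by day to 198 to 616 CPM at night (-1.81 ± 0.28, adjusted p = 0.00767). Eif4ebp3 had 7.20, 7.11, 14.2 and 6.03 CPM by day and 72.3, 28.9, 28.7 and 28.0 CPM at night, so CT16 replicate 1 alone exceeded the other night libraries by more than 2-fold (-2.19 ± 0.35, adjusted p = 0.00767). Members of neighbouring steps were mostly not past the threshold: 2 of 45 ribosome biogenesis genes were higher at night (Nolc1 and Rrp12, 4.44%, median -0.28; 1 without CT4 replicate 1, CT8 replicate 1, CT16 replicate 1 or CT16 replicate 2), and none of 23 cytosolic aminoacyl-tRNA synthetase genes passed (median -0.14).

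Heat shock chaperones, which fold new and damaged proteins, formed the next list. It holds mostly cytosolic chaperones and cochaperones, with the mitochondrial pair Hspd1 and Hspe1, the regulator Hsf1 and P4ha1, a prolyl hydroxylase of the endoplasmic reticulum. Of its 24 genes 9 were higher at night and none by day (37.5% against 1.79%), all 24 estimates were below 0, and the median was -0.77. Without CT20 replicate 2 the count was 13. Without CT4 replicate 1, CT8 replicate 1, CT8 replicate 2 or CT16 replicate 2 it was 4, 3, 4 and 4. The summed level was 557 and 701 CPM at CT4, 515 and 609 CPM at CT8, 1231 and 1553 CPM at CT16 and 995 and 1018 CPM at CT20, a night mean 2.01 times the day mean with no overlap. Hspa8, the constitutive HSC70 chaperone, read 39.3, 31.4, 46.9 and 46.6 CPM by day, 218 and 240 CPM at CT16 and 88.7 and 71.0 CPM at CT20. The CT16 libraries carried more than 2 times the level of the CT20 libraries (-1.91 ± 0.34 over the night, adjusted p = 0.0132). Hsp90ab1, the constitutive HSP90, went from 151 to 258 CPM by day to 375 to 604 CPM at night (-1.19 ± 0.19, adjusted p = 0.00749). Hspb1, a small heat shock protein, went from 2.19 to 3.75 CPM to 8.13 to 12.6 CPM (-1.74 ± 0.20, adjusted p = 0.00267). Fkbp4, Hsph1, Hsp90aa1, Hspa4l, Hspd1 and Ahsa2 completed the called members. The heat-inducible pair Hspa1a (-1.55) and Hspa1b (-1.59), near-identical genes that can share reads, were not past the threshold, and neither was the regulator Hsf1 (-0.12).

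Heat shock factor binds repeats of GAA and its complement TTC, each followed by 2 bases of any kind. A row of 3 such units in alternating orientation, searched on both strands in the 250 bases before the start, was found in 3 of 24 chaperone genes (12.5%) and in 44 of 11611 genes (0.379%). The 3 chaperone genes are Hspa8, Hspd1 and Hspe1, and the last 2 share 1 region between divergent starts. The windows below are on the sense strand of GRCm38.p6 with the matched units in capitals, and lie in the promoter, upstream of the first exon.
Hspa8, chr9:40801055-40801083, plus strand, 213 bases before the start: gcgagcgtGAAAGTTCCAGAAcgccgcgg
Hspa8, chr9:40801213-40801241, plus strand, 55 bases before the start: cggcacccTTCTGGAAGGTTCtaagacag
Hspd1, chr1:55088056-55088084, minus strand, 144 bases before the start: gcggggccTTCCGGAAGGTTCtagaacgg
Hspd1, the mitochondrial chaperonin, went from 39.0 to 43.5 CPM by day to 60.6 to 81.6 CPM at night (-0.68 ± 0.13, adjusted p = 0.0217). Hspe1, its partner, had a night range of 19.9 to 28.6 CPM above a day range of 14.4 to 18.6 CPM but did not pass (adjusted p = 0.0517). None of 27 genes for chaperones of the endoplasmic reticulum and the unfolded protein response was called, and their median was -0.17. Hspa5, the chaperone BiP, ranged from 266 to 543 CPM by day and from 443 to 717 CPM at night (-0.38 ± 0.22, adjusted p = 0.467), with overlapping groups.

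Of 19 fatty acid synthesis genes, 7 were higher at night, none by day and 12 did not pass (36.8% against 1.79%), with a median of -0.59. Thrsp, a nuclear protein tied to lipogenesis, had 34.7 and 16.9 CPM at CT4, 46.8 and 53.3 CPM at CT8, 368 and 393 CPM at CT16 and 252 and 246 CPM at CT20. The night libraries stood far above the day libraries, an 8.29-fold difference of the means (-3.05 ± 0.31, adjusted p = 0.00139). Fasn, the fatty acid synthase, read 319, 190, 220 and 278 CPM by day and 471, 836, 718 and 899 CPM at night (-1.54 ± 0.21, adjusted p = 0.00341). Elovl6, which elongates C16 chains, went from 5.86 to 7.597 CPM to 11.5 to 23.5 CPM (-1.48 ± 0.20, adjusted p = 0.00313). Acly, Acaca and Fads2 were also called, of which Acaca was not called without CT20 replicate 2 (adjusted p = 0.0622). Without CT4 replicate 2, CT8 replicate 1 or CT8 replicate 2 the list gave 4 calls, and without CT16 replicate 2 it gave 3. The transcription factor Srebf1 (-0.59, adjusted p = 0.344) and the desaturase Scd1 (-0.34) were not past the threshold.

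Aacs, the cytosolic acetoacetyl-CoA synthetase that turns ketone bodies back into lipid precursors, had the lowest p of all transcripts. It had 15.0, 9.22, 13.2 and 10.2 CPM by day and 55.2, 53.4, 74.4 and 70.2 CPM at night, with no overlap and a 5.31-fold difference (-2.41 ± 0.19, adjusted p = 0.00017). Angptl8, a secreted inhibitor of lipoprotein lipase made after feeding, read 5.55 to 10.2 CPM by day, 58.8 and 47.9 CPM at CT16 and 10.9 and 15.9 CPM at CT20, where it approached the day level (-1.99 ± 0.44, adjusted p = 0.0352). Of 25 genes of cholesterol synthesis and uptake, 3 were higher at night (12.0% against 1.79%, median -0.34). Among them were Insig1, which holds the SREBP complex in the endoplasmic reticulum (day 36.9 to 44.8 CPM, night 64.8 to 85.5 CPM, -0.97 ± 0.14, adjusted p = 0.00362), and Lss, the lanosterol synthase. Without CT20 replicate 2, Lss did not pass (adjusted p = 0.0865) and Insig1 was the 1 call of the list, which also gave 1 call without CT4 replicate 1, CT4 replicate 2, CT8 replicate 1, CT16 replicate 2 or CT20 replicate 1. The same list gave 5 night calls with total-count scaling and 1 with totals without Mup transcripts. Genes of fatty acid breakdown gave 1 call among 29, Acot1, an acyl-CoA thioesterase whose reads can be shared with its close relatives (-1.68 ± 0.28, adjusted p = 0.00957, median of the list -0.20), and 2 without CT20 replicate 1.

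Among 23 genes of glucose output and glycogen, 2 were higher at night (8.70% against 1.79%, median -0.24). The count was 1 without CT8 replicate 1, CT16 replicate 1 or CT16 replicate 2. Ppp1r3b, the subunit that targets phosphatase to glycogen, had 40.0 and 25.4 CPM at CT4, 13.2 and 15.6 CPM at CT8 and 59.6 to 69.4 CPM at night (-1.43 ± 0.28, adjusted p = 0.0210). Pfkfb1, the bifunctional enzyme that sets the liver's fructose 2,6-bisphosphate, went from 5.05 to 7.67 CPM by day to 13.4 to 16.8 CPM at night (-1.28 ± 0.15, adjusted p = 0.00267). The gluconeogenic genes Pck1 (0.25) and G6pc (-0.48) were not past the threshold. Between CT4 and CT16, 8 members were lower at CT4 and 1 higher (2.68% and 1.01% of all genes). Between CT8 and CT20, 3 were lower at CT8 and 2 higher (1.32% and 0.588% of all genes). The test of the difference between these pairs called 10 of the 23 members, against 1.27% of all genes. Bile acid genes split with TMM scaling. Of 21 genes, Cyp7a1, the rate-limiting enzyme of bile acid synthesis, and Akr1d1, a reductase of the same pathway, were higher at night, and Hsd3b7, a dehydrogenase of an early step, was higher by day (9.52% at night against 1.79% and 4.76% by day against 0.511%, median 0.15). None of the 3 passed without CT8 replicate 1, CT16 replicate 1 or CT16 replicate 2, and the list gave 1 call, at night, without CT4 replicate 1 or CT4 replicate 2. Without CT8 replicate 2 it gave 1 call each way, and without CT20 replicate 2 it gave 2 each way. With total-count scaling it gave 1 night call and no day call. Cyp7a1 read 16.5, 11.1, 21.6 and 35.1 CPM by day, 84.5 and 128 CPM at CT16 and 43.9 and 52.2 CPM at CT20 (-1.87 ± 0.37, adjusted p = 0.0216). Hsd3b7 had 272, 255, 272 and 180 CPM by day, 82.2 and 80.8 CPM at CT16 and 154 and 142 CPM at CT20, so its lowest values were in the libraries where Cyp7a1 was highest (1.09 ± 0.22, adjusted p = 0.0248).

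Of 25 glucocorticoid-responsive and immediate early genes, 4 were higher at night (16% against 1.79%, median -0.40). Fkbp5, a cochaperone induced by glucocorticoids, had 1.66, 3.12, 2.58 and 3.47 CPM by day, 24.1 and 12.8 CPM at CT16 and 4.30 and 4.37 CPM at CT20, a night group that only just cleared the day group at CT20 (-2.08 ± 0.48, adjusted p = 0.0443). Tsc22d3, the glucocorticoid-induced leucine zipper, went from 8.08 to 13.2 CPM to 19.2 to 32.3 CPM (-1.47 ± 0.19, adjusted p = 0.0030). Dusp1, a MAP kinase phosphatase, and Jun were the other 2. The list gave 2 calls without CT4 replicate 1, CT4 replicate 2, CT8 replicate 1, CT16 replicate 1 or CT16 replicate 2. Of 43 xenobiotic genes, 4 were higher at night (9.30% against 1.79%, median -0.23), or 8 without CT20 replicate 1 and 3 to 5 when 1 of the other libraries was left out. The 4 are Alas1, the carboxylesterase Ces1d and the sulfotransferases Sult1a1 and Sult1d1. Alas1, the first enzyme of heme synthesis, read 65.1 to 112 CPM by day, 739.5 and 587 CPM at CT16 and 274 and 161 CPM at CT20 (-2.33 ± 0.38, adjusted p = 0.00875). Cyp17a1, a steroid hydroxylase outside these lists, went from 0.561 to 1.25 CPM to 2.58 to 3.95 CPM (-1.86 ± 0.29, adjusted p = 0.00767).

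Lists of genes with many reads gave calls in both directions with TMM scaling. Of 30 genes of the urea cycle and amino acid breakdown, Asl and Prodh were higher at night and Cbs and Agxt by day (6.67% each way, against 1.79% at night and 0.511% by day over all genes, median -0.20). With total-count scaling the list gave 1 night call and no day call. The counts also moved with single libraries. Without CT4 replicate 1, CT4 replicate 2, CT16 replicate 1 or CT16 replicate 2 the list gave 1 night call and no day call, without CT8 replicate 1 or CT20 replicate 2 it gave 1 day call, and without CT20 replicate 1 it gave 4 night calls. Asl, the argininosuccinate lyase, read 245, 224, 198 and 203 CPM by day and 440, 424.5, 393 and 431 CPM at night, with little spread in either group (-0.96 ± 0.12, adjusted p = 0.00295). Cbs, which starts transsulfuration of homocysteine, went the other way, from 182 to 214 CPM by day to 110 to 145 CPM at night (0.64 ± 0.13, adjusted p = 0.0210). Agxt, which detoxifies glyoxylate, did not pass without CT20 replicate 2 (adjusted p = 0.0754). Among 57 secreted plasma proteins, Serpinf2, the inhibitor of plasmin, was higher by day and Serpina1b, an alpha-1-antitrypsin, at night (1.75% each way, against 1.79% at night and 0.511% by day over all genes, median 0.06). Neither direction had a call with total-count scaling. No night call was made without CT4 replicate 1, CT4 replicate 2, CT8 replicate 2, CT16 replicate 1 or CT16 replicate 2, while 2 were made at night without CT20 replicate 1 and 2 by day without CT20 replicate 2. Serpinf2 had 368, 376, 377 and 366 CPM by day and 228, 211, 223 and 248 CPM at night (0.71 ± 0.11, adjusted p = 0.00685). Serpina1b (-0.71 ± 0.14) and Serpina1c (-0.85 ± 0.13) belong to a cluster of near-identical genes that can share reads, so which copy moved is uncertain. Adh1, the alcohol dehydrogenase, had the most reads among the named night genes, 618 to 757 CPM by day and 1036 to 1256 CPM at night (-0.68 ± 0.12, adjusted p = 0.0114).

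**Figure D3:**
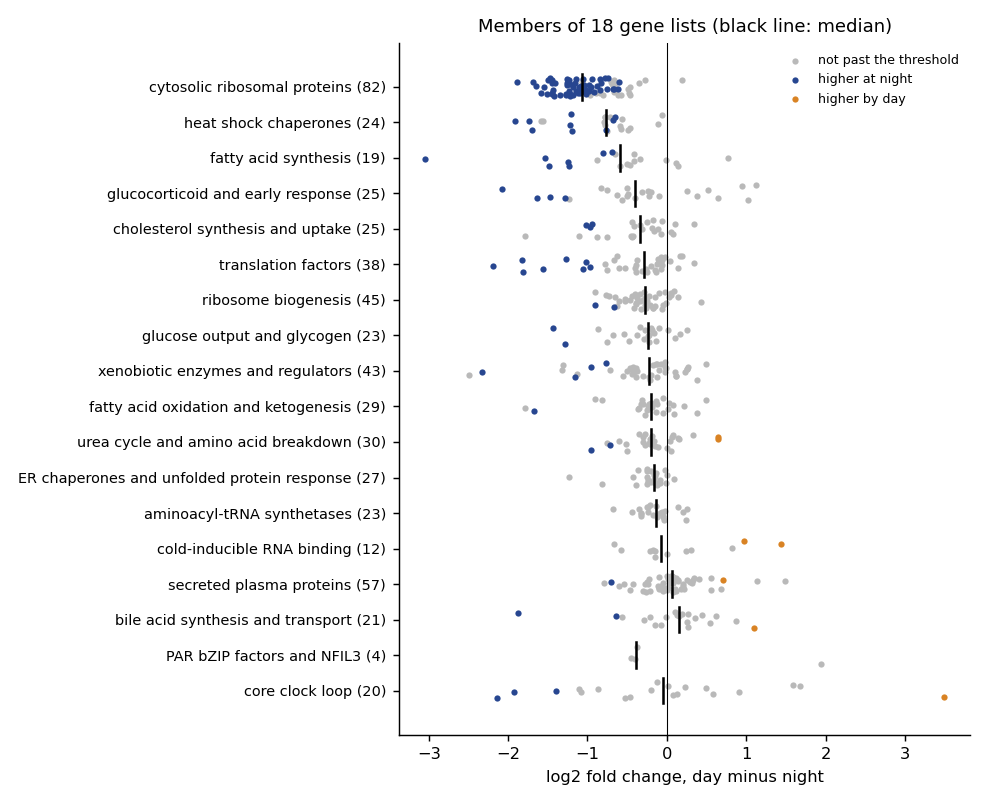
Each point is a gene of 1 of 18 lists, placed by its log2 difference, day minus night; blue points were higher at night, orange points higher by day and grey points not past the threshold, and the black line is the median of the list. The ribosomal protein points lie almost wholly left of 0 around a median of -1.07, while the lists for secreted proteins and bile acids have medians of 0.06 and 0.15.

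Among the 60 genes higher by day, 50 were also called without CT20 replicate 2. Nr1d1, a clock gene described below with the others, led them. Fbxo21, a subunit of a ubiquitin ligase, had 28.8 and 29.35 CPM at CT4, 61.7 and 39.3 CPM at CT8 and 12.7 to 13.8 CPM at night (1.61 ± 0.22, adjusted p = 0.00313). The night values were nearly equal and the day values spread over more than 2-fold. Lpl, the lipoprotein lipase, read 15.7, 24.5, 12.0 and 18.04 CPM by day and 3.82, 6.72, 6.97 and 8.49 CPM at night (1.43 ± 0.25, adjusted p = 0.0113). Crot, the peroxisomal carnitine octanoyltransferase, went from a night range of 117 to 217 CPM to a day range of 286 to 371 CPM (1.05 ± 0.18, adjusted p = 0.0114). Inca1, an inhibitor of cyclin-dependent kinase 2, had 3.97 to 5.196 CPM by day and 1.64 to 1.78 CPM at night (1.42 ± 0.17, adjusted p = 0.00267).

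Some day genes had few reads or 1 high library. Trib3, a stress-induced pseudokinase, had 1.71, 1.26, 6.80 and 2.19 CPM by day and 0.252 to 0.727 CPM at night, so CT8 replicate 1 held most of the day level (2.33 ± 0.51, adjusted p = 0.0339). Ndrg1, a stress and differentiation gene, was high at CT4 with 11.7 and 12.9 CPM, lower at CT8 with 5.48 and 4.87 CPM, and at 2.35 to 4.37 CPM at night (1.44 ± 0.31, adjusted p = 0.0308). Arrdc3, an alpha-arrestin (12.8 to 32.6 CPM by day and 5.99 to 10.9 CPM at night, 1.37 ± 0.28), Serpina7, the thyroxine-binding globulin (1.38 ± 0.33), and Arsg, a lysosomal sulfatase (1.34 ± 0.31), passed with adjusted p of 0.0248, 0.0488 and 0.0452. A transcript with no gene symbol in the tables used here was higher by day as well, at 2.57 to 3.95 CPM against 0.789 to 1.91 CPM (1.32 ± 0.27, adjusted p = 0.0248).

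Cold-inducible RNA binding genes, known for their response to a mild fall in body temperature, gave 2 calls among 12, both by day (16.7% against 0.511%, median -0.08), and none by day without CT4 replicate 1, CT8 replicate 1, CT16 replicate 1 or CT16 replicate 2. Cirbp had 5.25 and 3.05 CPM at CT4, 4.55 and 1.84 CPM at CT8 and 1.07 to 1.63 CPM at night (1.43 ± 0.30, adjusted p = 0.0286). It did not pass with total-count scaling, nor without CT4 replicate 1, CT8 replicate 1, CT16 replicate 1, CT16 replicate 2 or CT20 replicate 1. Rbm3, the other classic member, was at 0.31 with overlapping groups (adjusted p = 0.839).

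Itga8, an integrin subunit known from hepatic stellate cells, had 5.99, 4.78, 4.54 and 4.58 CPM by day and 1.41, 1.45, 1.94 and 2.18 CPM at night (1.51 ± 0.19, adjusted p = 0.0030). The 10 stellate cell markers summed to 219 to 254 CPM by day and 165 to 201 CPM at night, with no overlap. Of them, 9 of 10 estimates were above 0 (median 0.41), 1 passed, Pdgfrb (10% against 0.511% of all genes by day, 0.70 ± 0.15, adjusted p = 0.0347), and it did not pass when any 1 of the 8 libraries was left out (adjusted p = 0.0544 without CT20 replicate 2). The 10 Kupffer cell markers were at 147 to 179 CPM by day and 120 to 156 CPM at night and the 10 endothelial markers at 281 to 291 and 207 to 282 CPM, and none of these 20 passed. Their estimates leaned to day as well, with 10 of 10 above 0 for Kupffer cells (median 0.32) and 9 of 10 for endothelial cells (median 0.20). Of the 10 hepatocyte markers, 4 estimates were above 0 and 6 below (median -0.25). The lean to day was thus not particular to stellate markers. The part of a shift in cell types in the Itga8 difference was not tested.

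Most genes of the clock loop did not pass for day against night as a whole. Of 20 genes of the core loop, 1 was higher by day, Nr1d1, and 3 at night, Per2 and Cry1 among them (5.0% against 0.511% and 15.0% against 1.79%, median -0.05), and none of the 4 genes for PAR bZIP factors and NFIL3, which carry the clock's output, was called. Nr1d1, which encodes the repressor REV-ERBα, had 36.1 and 18.5 CPM at CT4, 66.7 and 47.2 CPM at CT8, 7.85 and 3.93 CPM at CT16 and 1.37 and 1.65 CPM at CT20. Every day library exceeded every night library, with a fitted difference of 11.3-fold (3.499 ± 0.52, adjusted p = 0.00626). Of the related receptors, Nr1d2 (0.92 ± 0.52, adjusted p = 0.455) and Rora (-0.21 ± 0.15, adjusted p = 0.594) had overlapping groups.

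Per2, a repressor of the loop, read 1.90 and 0.649 CPM at CT4, 4.14 and 4.597 CPM at CT8, 14.7 and 15.3 CPM at CT16 and 11.7 and 8.57 CPM at CT20 (-2.14 ± 0.43, adjusted p = 0.0233). Cry1, its partner, had 4.30 and 4.40 CPM at CT4, 3.20 and 2.06 CPM at CT8, 9.60 and 5.61 CPM at CT16 and 10.2 and 11.4 CPM at CT20 (-1.40 ± 0.25, adjusted p = 0.0142). Both had separate groups, with Per2 highest at CT16 and Cry1 at CT20. Per1 (-1.10 ± 0.65), Per3 (-1.08 ± 0.78) and Cry2 (-0.46 ± 0.27) lay in the same direction with overlapping groups and were not past the threshold (adjusted p of 0.482, 0.584 and 0.469). Clock (0.08 ± 0.16), the kinase gene Csnk1d (-0.12 ± 0.14) and the ubiquitin ligase gene Btrc (0.13 ± 0.16) also had overlapping groups. Csnk1e and Fbxl21 had under 1 CPM in every library, so these libraries give little precision on them.

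**Figure D4:**
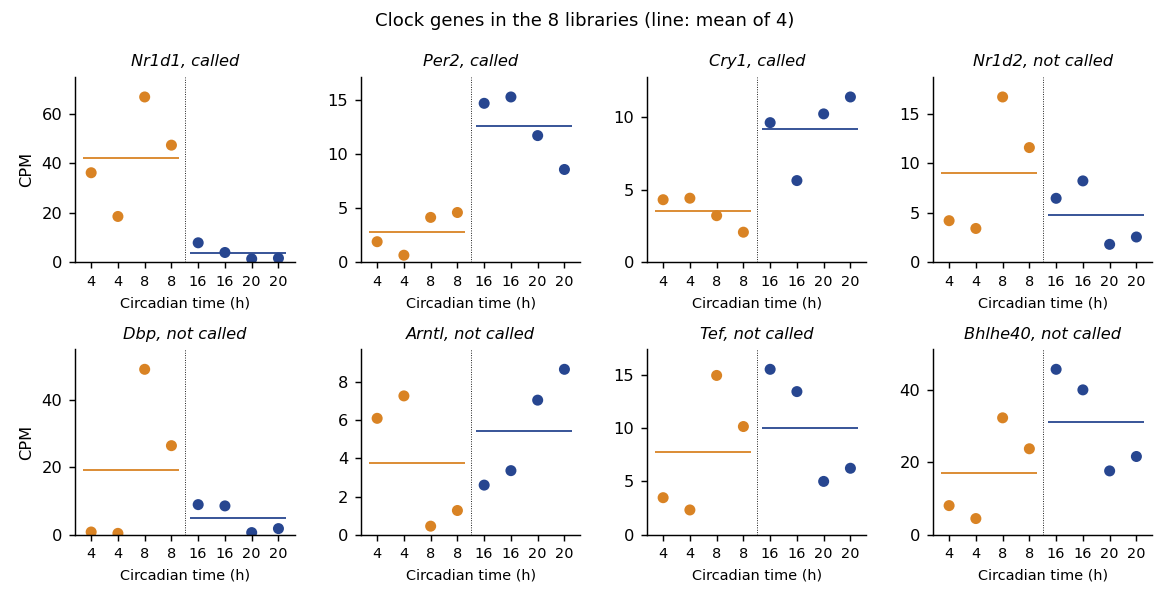
Points give the CPM of 8 clock genes in each library at circadian times 4, 8, 16 and 20 h (orange day, blue night; lines are means of 4 libraries). Nr1d1, Per2 and Cry1 have separate day and night groups, whereas Nr1d2, Dbp, Arntl, Tef and Bhlhe40 differ more between the 2 times of a group than between the groups.

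Many clock genes gave unlike differences at the 2 pairs of times that lie 12 h apart. A test of whether the difference of CT4 from CT16 equals that of CT8 from CT20, in the fit to all 14 libraries, called 149 genes (1.27%), among them 12 of the 20 core loop genes and Dbp, Tef and Nfil3. Dbp, a PAR bZIP activator, had 0.765 and 0.361 CPM at CT4, 49.1 and 26.4 CPM at CT8, 8.90 and 8.52 CPM at CT16 and 0.594 and 1.78 CPM at CT20. It was lower by day in the first pair (-3.91, adjusted p = 2.64e-05) and higher by day in the second (4.95, adjusted p = 7.17e-06), and the groups of 4 overlapped (1.95 ± 1.13, adjusted p = 0.467). Arntl, the gene for BMAL1, had 6.11 and 7.29 CPM at CT4, 0.442 and 1.27 CPM at CT8, 2.60 and 3.36 CPM at CT16 and 7.07 and 8.69 CPM at CT20, and so ran against Dbp (1.18 and -3.22 in the pairs, difference 4.40, adjusted p = 6.23e-05). Npas2, which can stand in for Clock, followed Arntl with a difference of 7.08 between the pairs at 2.22 CPM or less. Bhlhe40, Bhlhe41, Ciart, Per1, Per3, Nr1d2 and Tef followed Dbp, with differences between the pairs from -3.29 to -7.64. In the fit to 14 libraries Arntl, Per1, Per3, Nr1d2 and Bhlhe40 also passed for day against night as a whole, each with overlapping groups.

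Of the 270 genes called for day against night, 11 (4.07%) passed the test between the pairs, against 1.27% of all genes. Of the 210 night genes, 145 were lower at CT4 than at CT16 (2.68% of all genes were) and 66 lower at CT8 than at CT20 (1.32% of all genes), each at an adjusted p under 0.05. Of the 60 day genes, 32 were higher at CT4 than at CT16 (1.01% of all genes) and 20 higher at CT8 than at CT20 (0.588% of all genes). These genes were called on the same 8 libraries, which largely fixed their direction in each pair, so nothing is read from these counts. Among the named genes outside the clock, Alas1 (-1.98), Fkbp5 (-2.43), Hspa8 (-1.92), Cyp7a1 (-2.17), Eef2 (-1.36) and Hsd3b7 (1.09) differed between the pairs. Hsd3b7 was lowest in the CT16 libraries and the other 5 were highest there. For Cyp7a1 the CT4 libraries (16.5 and 11.1 CPM) also lay below those of CT8 (21.6 and 35.1 CPM), so CT16 alone does not make its difference.

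**Figure D5:**
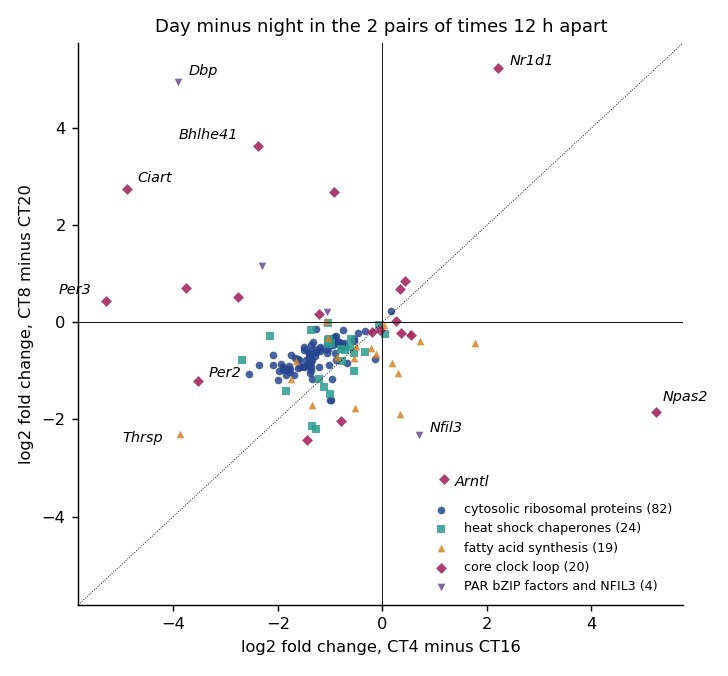
Each point is a gene of 5 lists, with the log2 difference of CT4 from CT16 on the horizontal axis and of CT8 from CT20 on the vertical axis; the dotted line marks equal differences. Ribosomal protein, chaperone and fat synthesis genes lie mostly in the lower left, lower by day in both pairs, while Dbp, Ciart and Bhlhe41 lie in the upper left and Arntl, Npas2 and Nfil3 in the lower right.

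Binding motifs of clock factors and of the glucocorticoid receptor were searched in the 250 bases before the starts. The E-box CACGTG, bound by BMAL1 and CLOCK and the same on both strands, stood in 4 of 20 core loop genes (20.0%), 25 of 209 night genes (12.0%), 4 of 59 day genes (6.78%) and 976 of all 11611 genes (8.41%). The D-box TTATGTAA, bound by the PAR bZIP factors and searched on both strands, stood in 2 of 20 core loop genes (10.0%), 5 of 209 night genes (2.39%), 0 of 59 day genes and 57 of all genes (0.491%). The core TAGGTCA of the element bound by REV-ERB and ROR, searched on both strands, stood in 0 of 20 core loop genes, 0 of 209 night genes, 0 of 59 day genes and 214 of all genes (1.84%). The letters TGTTCT, 1 arm of the site of the glucocorticoid receptor, searched on both strands, stood in 0 of the 25 glucocorticoid-responsive and immediate early genes, 26 of 209 night genes (12.4%), 5 of 59 day genes (8.47%) and 1218 of all genes (10.49%). The windows below are from named night genes of the clock, translation, fuel and steroid groups, on the sense strand of GRCm38.p6, upstream of the first exon, with the motif in capitals.
Cry1, chr10:85185098-85185125, minus strand, 60 bases before the start: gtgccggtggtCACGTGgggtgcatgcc
Eef2, chr10:81176577-81176604, plus strand, 43 bases before the start: cccggcgccgtCACGTGacgcacccaac
Insig1, chr5:28071300-28071327, plus strand, 101 bases before the start: ctgggtgaggtCACGTGgctccggtggc
Dusp1, chr17:26508582-26508609, minus strand, 126 bases before the start: caccgcccggtCACGTGtctgccattca
Fkbp5, chr17:28486302-28486329, minus strand, 169 bases before the start: caagggccagaCACGTGggcagcggtga
Per2, D-box, chr1:91459432-91459459, minus strand, 121 bases before the start: catgtgcgtcTTATGTAAagagagcgac
Genes that hold the same motif had unlike patterns. Cry1 was highest in both CT20 libraries, Dusp1 in 1 of them, and Eef2 and Fkbp5 at CT16. A match of 6 letters in this window is a description of the sequence, not of a bound site.

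Reads were last set apart by region of the mRNA, since ribosomes on the 5′UTR can mark initiation upstream of the coding sequence. The ratio of 5′UTR to CDS counts was tested in the 7640 transcripts that averaged 10 counts or more in both regions. None passed the threshold in either direction (limma, 0.0% called, lowest adjusted p = 0.69), and 421 transcripts were higher by day and 47 at night at an unadjusted p under 0.05. The estimates leaned to day, with a median log2 difference of 0.34 and 75.4% above 0. Per library, the median log2 ratio was -3.10 and -3.13 at CT4, -3.08 and -3.34 at CT8, -3.19 and -3.96 at CT16 and -3.43 and -3.48 at CT20. The groups overlapped through CT8 replicate 2 and CT16 replicate 1, and CT16 replicate 2 was lowest (-3.16 ± 0.12 SD by day and -3.51 ± 0.32 at night, n = 4 each, exact permutation p = 0.0571, two-sided, adjusted p = 0.171 over 6 measures of a library, where 0.0286 is the smallest p that 70 splits allow). Without CT16 replicate 2 the median over transcripts was 0.16. The share of all reads on 5′UTRs was 7.68% ± 0.95 by day and 6.91% ± 1.90 at night (exact permutation p = 0.486), and the share on Mup transcripts 63.6% ± 4.9 and 56.8% ± 10.5 (exact permutation p = 0.286). All 19 Mup genes had estimates above 0, with a median of 0.28, and none was called. Among genes with a strong day against night difference in total reads, the ratio for Hspa8 differed by 0.01 ± 0.44, for Eef1a1 by 0.01 ± 0.29 and for Alas1 by 0.21 ± 0.51, intervals too wide to read a change of region from.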

How the data were processed

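Ribosome profiling libraries of 14 mouse livers were deposited as raw read counts for each RefSeq transcript, split by 5′UTR, coding sequence (CDS) and 3′UTR, made by the authors from reads aligned to mm10 (the submitters' processing notes name Bowtie2 2.1.0.0, SAMtools 0.1.19.0 and FastQC). By the study's methods, read profiles were built from reads with a single place of alignment. Whether this holds for the deposited counts, and how a read shared by overlapping transcripts was counted, is not given in the sources used here. The deposited files hold, as other values, the length of each region. Of 28167 transcripts 27956 were named, and 81 of those kept have no symbol.

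Counts of the 3 regions were summed, and the 17299 transcripts averaging 10 counts or more over 14 libraries were kept. The 8 libraries were fitted in 2 groups with edgeR 4.0.16 (R 4.3.3, TMM, quasi-likelihood F test, Benjamini-Hochberg, threshold 0.05). Standard errors are those of the fit's log2 differences. Ratios of regions were tested with limma 3.58.1 on log2((5′UTR + 0.5)/(CDS + 0.5)). Library measures were tested by exact permutation. DESeq2 1.42.0 was an alternative. The fits were tested on simulated counts. Tables and figures used Python 3.11.15, pandas 2.3.3, scipy 1.17.1 and matplotlib 3.10.9. Sequences came from GRCm38.p6 with its RefSeq annotation.

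The members, gene lists and tests were chosen with earlier results of these data known. Genes were named by rule: all core loop, PAR bZIP and NFIL3 genes; in each direction the 12 largest differences past the threshold with and without CT20 replicate 2, with a mean of at least 100 counts, no overlap and no Mup or acinar gene; up to 4 lowest p in each other list, or the 2 with most reads where none passed; and the 3 with most reads in each direction. Other genes named were chosen after their values were seen. Replicate numbers only name mice: deviations of same-numbered libraries correlated at -0.044 to 0.34 between times. Totals were 46583013 to 87480771 counts in the 8 libraries. The second sequencing run of CT16 replicate 2 was not analysed here on its own. For the last pair of the series the labels give both CT24 and CT00, and it enters only the fits to 14 libraries. Some genes that the rule names are not reported here.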

Additional observations from a re-analysis of the deposited data

Results flagged for a closer look

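Among 176 groups of 4 libraries, 1 library stood far from the other 3 in 13, and chance gives about 1 in 20. The library of CT20 replicate 1 was lowest of the night for Trib3 (0.252 CPM) and highest for Hspb1 (12.6 CPM), Nolc1 (17.1 CPM) and Agxt (96.7 CPM), and it also had the highest share of reads on 5′UTRs (9.74%) and the lowest on coding sequence (90.0%). CT20 replicate 2 was highest for Fbxo21 (13.8 CPM), where the other night libraries had 12.7 to 12.8 CPM. CT16 replicate 2 was highest for Hspa5 (717 CPM) and lowest for Ces1d (379 CPM), and CT16 replicate 1 highest for Eif4ebp3 (72.3 CPM). By day, CT8 replicate 1 was highest for Trib3 (6.80 CPM) and Eif4ebp3 (14.2 CPM) and CT4 replicate 1 highest for Itga8 (5.99 CPM).

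For 20 named genes the difference of CT4 from CT16 was not that of CT8 from CT20, by the test of the difference itself. On the log2 scale it was positive for Arntl (4.40), Npas2 (7.08), Nfil3 (3.03) and Hsd3b7 (1.09). It was negative for Dbp (-8.86), Ciart (-7.64), Bhlhe41 (-5.998), Per3 (-5.72), Per1 (-4.46), Nr1d2 (-3.63), Tef (-3.47), Bhlhe40 (-3.29), Nr1d1 (-3.02), Per2 (-2.31) and Cry2 (-1.39) in the clock lists, and for Fkbp5 (-2.43), Cyp7a1 (-2.17), Alas1 (-1.98), Hspa8 (-1.92) and Eef2 (-1.36) outside them.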

How the results depend on the processing

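The number of calls moved with the scaling, the model and each library, while all 64 named genes past the threshold kept their direction under 24 settings. Of these 64, 23 passed under every setting, among them Nr1d1, Thrsp, Aacs, Alas1, Eef1a1, Eef2, Rpl13, Fasn, Asl, Fbxo21 and Itga8, and 43 under every scaling. Without CT20 replicate 2, 3 did not pass, Lss and Agxt among them, and 17 genes did not with total-count scaling, among them Cirbp, Serpina7, Arrdc3, Arsg, Serpinf2, Crot, Hsd3b7, Adh1 and Serpina1b. Of 24 named genes not past the threshold, 15 turned sign under some setting. Taking 1 pair of times turned Ciart (-4.89) and Dbp (-3.91) between CT4 and CT16 and Tef (1.16) between CT8 and CT20. With the replicate number as a block, 91 transcripts were higher by day and 278 at night, and Trib3, Arsg, Fkbp5 and Jun did not pass.

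Transcripts higher by day numbered 88, and 16 with total-count scaling, 141 with totals without Mup, 58 with 1 transcript per gene, 237 with 7 time groups, 195 with 4, 178 for CT4 against CT16, 156 without CT20 and 281 with DESeq2. Transcripts higher at night numbered 280, and in the last 5 of these 530, 503, 427, 434 and 557. Genes higher by day numbered 60, and 10 with total counts, 94 without Mup, 157, 131, 119, 109 and 193 in those 5. Genes higher at night numbered 210, with 186 by total counts, 151 without Mup and 169 by upper quartile, and with 7 groups, 4 groups, CT20 left out and DESeq2 387, 361, 320 and 398. Leaving out 1 library gave 30 to 115 day and 121 to 355 night transcripts, 20 to 82 day and 91 to 263 night genes. Fewer libraries leave fewer degrees of freedom. The 12 h pairs interaction, the test between the pairs, called 234 transcripts, from 121 without CT4 replicate 2 and 124 without CT8 replicate 1 to 374 without CT20 replicate 2. With 1 mouse per library and 2 per time, genes under about 1 CPM have little precision.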

Other observations

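The genes below lie outside the lists and were picked among the called genes after their values were seen, so they say nothing of the uncalled genes of their pathways. Among the night genes were 5 with roles in NAD and methyl group metabolism. Nampt, the rate-limiting enzyme of NAD salvage, read 7.10 to 14.5 CPM by day and 23.99 to 39.6 CPM at night (-1.66 ± 0.23, adjusted p = 0.00333). Nmrk1 (-1.30), the methyltransferase Nnmt (-1.11), Acmsd (-1.04) and Ahcy (-1.27), which hydrolyses S-adenosylhomocysteine, passed in the same direction with separate groups. The polyamine synthesis genes Odc1 (-0.98) and Srm (-1.23) did so as well. Of the acyl-CoA thioesterases, Acot4 (-1.19), Acot7 (-0.83) and Acot11 (-1.21) were higher at night beside Acot1. Esr1, the estrogen receptor, went from 3.69 to 4.37 CPM by day to 7.32 to 9.10 CPM at night (-1.01 ± 0.14, adjusted p = 0.00313). A run of zinc finger genes on chromosome 2, Zfp965, Zfp970, Zfp971, Zfp973 and Gm14326, lay between -0.85 and -0.95. These genes are near-identical and can share reads, so they are not taken as 5 separate results.

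Other day genes were Klhl24 (0.90), Ypel3 (1.18), Gabarapl1 of the autophagy machinery (65.6 to 102 CPM by day and 27.2 to 47.1 CPM at night, 0.98 ± 0.19, adjusted p = 0.0210) and Tcp11l2 (1.18). Matrix and fibroblast genes were also among the day genes, namely Islr (1.50), Pcolce (1.01), Pxdn (0.80), Col6a3 (0.85) and Fam20a (0.69), beside the stellate marker sums of 219 to 254 CPM by day and 165 to 201 CPM at night. The part of a shift in cell types was not tested. The interferon-stimulated genes Irf7 (0.78) and Usp18 (1.04) were called by day but not without CT20 replicate 2 (adjusted p of 0.0854 and 0.0746), while Iigp1 (0.71) was called both ways.

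Some genes with large differences fell outside the naming rule through low counts or overlap. Cyp2a4, a steroid hydroxylase with close relatives that can share its reads, had 0.206 to 0.346 CPM by day and 1.31 to 5.73 CPM at night (-3.35 ± 0.47, adjusted p = 0.00388). Slc16a5, a monocarboxylate transporter, was at -2.95 ± 0.51 at 3.39 CPM or less. Rcan1, a calcineurin inhibitor, had 12.7 and 14.1 CPM at CT16 but 2.06 and 4.47 CPM at CT20 against 1.35 to 2.61 CPM by day (-2.15 ± 0.48, adjusted p = 0.0377).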
